A study of Anas platyrhynchos with 6 samples.

Results

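The miR-15/16 family and its relatives miR-103 and miR-107 were followed through small RNA libraries of the duck duodenum. The members were all names of miR-15, miR-16, miR-103, miR-107, miR-195, miR-424, miR-497 and miR-503, of any species prefix, arm or copy, and they made up 56 of the 1568 miRNA names in the deposited tables. Names that had the same reads in all 6 libraries were counted once, which left 33 distinct profiles. The ducks were of the laying breed Nonghu No. 2, selected at 90 days of age, floor-reared before the trial and sampled after its end. For the trial of 10 days, 3 samples came from the traditional breeding (TB) group on the ground and 3 from the cage rearing (CR) group, which the labels spell "cage raring". Both groups were given the same amount of food under the same outside conditions, and they were compared for the stress of the move into cages. The paper reports that the CR ducks ate less and had a lower body weight. The sources do not say clearly that each library is a single duck, so p-values measure only the spread between these samples. Values are RPM, the reads of a name per 1000000 reads summed over all names of the library. The reads behind them could be recovered, as every value was a whole multiple of the value of 1 read.

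A miRNA is cut from a hairpin precursor, which yields a strand from its 5p and its 3p arm, and usually only the guide strand is kept in the silencing complex. The guide pairs with messenger RNAs mainly through its seed, a short stretch near its 5′ end. The miR-15/16 family, which includes miR-195, miR-424 and miR-497, shares a seed and is known from human and mouse cells for holding back cyclins and the survival factor BCL2, and thereby for restraining the cell cycle. In mammals, miR-103 and miR-107 lie in introns of the pantothenate kinase genes and are known for their effects on insulin sensitivity and on Dicer, and their seed overlaps that of miR-15/16 with a shift. The duodenal epithelium is renewed continuously from dividing crypt cells, so regulators of the cell cycle are of interest there.

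Summed over all names, the read counts of a library ran from 1500905 (CR replicate 2) to 11395209 (CR replicate 1). Names that share reads each count in these sums, which can therefore exceed the reads sequenced. TB replicate 1 and CR replicate 2 stood apart. Over the 662 tested names they correlated at 0.968 with each other and at 0.737 to 0.818 with the remaining 4 libraries, a value across miRNAs, which are not independent replicates. The label gives intestinal epithelial cells, while the paper describes a piece cut from the duodenum, without a step that isolates the epithelium. All 8 miRNAs of an epithelial marker list were measured, with sums of 49794 to 186730 RPM in TB and 38722 to 137934 RPM in CR. The 4 smooth muscle markers, however, came to 119998 to 165695 RPM in TB and 92244 to 201260 RPM in CR. Both lists split in TB replicate 1 and CR replicate 2. miR-192, miR-194 and miR-215 were low there (miR-215 at 11200 and 12535 RPM against 91467 to 143915 RPM elsewhere). miR-200b, miR-200c and miR-429 were high (miR-200c at 1914 and 2217 RPM against 132 to 313 RPM), and miR-200a and miR-141 were mixed. Of the muscle markers, miR-143 and the name taken for miR-1 were low, and miR-145 and miR-133a were high. Each marker stands for its most abundant name of any arm. For miR-1, with 24 names, this was mmu-miR-1b-5p, of the 5p arm, at 269 and 254 RPM against 3180 to 4662 RPM elsewhere. It is part of the muscle sums, and the 3p arm of miR-1 was not examined. The endothelial marker miR-126 lay between 469 and 1467 RPM. Erythroid markers (3 of 3 with reads, miR-486 at 1 read in all) summed to 21.2 to 42.8 RPM in TB and 32.0 to 55.5 RPM in CR. Leukocyte markers (3 of 4 with reads, miR-223 at 1 read in all and miR-150 without a name) summed to 56.6 to 331 RPM in TB and 137 to 326 RPM in CR. The hepatocyte marker miR-122 reached 328 RPM in CR replicate 2 against 1.55 to 7.36 RPM elsewhere. The 3 pancreas markers reached 53.6 RPM in TB replicate 1 and 26.0 RPM in CR replicate 2 against 1.11 to 4.83 RPM elsewhere, and the part of such cells in the values below was not tested. In bulk samples, fewer cells of a type and less RNA per cell cannot be told apart.

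The group was carried by few of its members. Reads were counted for 46 names in 32 of the 33 profiles, and 10 names were listed at 0 in every library. Of the 33 profiles, 14 (21 names) had 10 reads or more in 3 or more libraries and could be tested, 10 of them in the miR-15/16 family and 4 of miR-103 and miR-107. The other 18 profiles with reads had between 1 and 120 reads over all libraries. None of the 56 names has the duck prefix apl, and 6 have the chicken prefix gga. The tested profiles are not 14 separate measurements, since names of near-identical sequence, or of opposite strands of a sequence, can take the same reads. The names oan-miR-15c-5p and dre-miR-15b-5p had read counts that matched to at least 98.0% in each library, and hsa-miR-103a-3p and hsa-miR-103b to at least 95.7%. For hsa-miR-15a-5p and gga-miR-15a the figure was 87.5%, and for hsa-miR-107 and cfa-miR-107 it was 73.5%. In human, miR-103b is annotated on the strand opposite to miR-103a, so without a statement that the counting used the strand, their reads cannot be told apart.

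miR-103 was by far the most abundant member. Values of a group are listed from replicate 1 to replicate 3 throughout. The TB libraries had 2596, 928 and 724 RPM of hsa-miR-103a-3p, the guide arm, and the CR libraries had 685, 2869 and 425 RPM. TB replicate 1 and CR replicate 2 were high, and the groups overlapped. Means were 1416 ± 1027 RPM (SD, n = 3) for TB and 1326 ± 1342 RPM (SD, n = 3) for CR. Fold changes are CR over TB on the log2(RPM + 1) scale. For hsa-miR-103a-3p limma gave a log2 fold change of -0.35 with a standard error of 0.90 and an adjusted p of 0.999, well within the spread between replicates. With TB replicate 1 and CR replicate 2 set aside, TB averaged 826 RPM against 555 RPM for CR, and limma gave -0.60 with a standard error of 0.44 and an adjusted p of 0.997. Scaling the libraries with TMM, which weighs the bulk of the miRNAs rather than the total, altered the picture for miR-103. TMM-scaled RPM was 1529, 1220.2 and 1136 in the TB libraries and 887, 969 and 799 in the CR libraries, so that the highest CR library was below the lowest TB library. The log2 fold change was then -0.54 (standard error 0.45, adjusted p = 0.9997 in limma), while TMM moved the median of all tested profiles from 0.05 to -0.12. Under TMM the groups failed to overlap for 2 of the 14 tested members, both of them miR-103 names that share reads, and for 11 of the 447 tested profiles (2.46%) in all. The name hsa-miR-103b followed hsa-miR-103a-3p, with means of 1381 ± 1020.5 RPM for TB and 1305 ± 1337 RPM for CR.

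miR-107, which shares the seed of miR-103 and differs little from it in the rest of the mature sequence, was much scarcer. The TB libraries had 123.0, 22.2 and 14.9 RPM of hsa-miR-107 (the same reads as bta-miR-107), and the CR libraries had 14.4, 179 and 9.80 RPM. TB replicate 1 and CR replicate 2 had at least 5.55 times the level of any other library, and the groups overlapped. The fold change was -0.20 on the log2 scale, with a standard error of 1.37 and an adjusted p of 0.999 (limma). The name cfa-miR-107 had 7.20 to 18.1 RPM in the other 4 libraries and 106.9 and 157 RPM in TB replicate 1 and CR replicate 2. The fish names dre-miR-107b and ipu-miR-107b reached 10 reads only in TB replicate 1 and CR replicate 2, so they were not tested. Of the 120 reads of dre-miR-107b, 101 were those of TB replicate 1 (10.7 RPM) and of CR replicate 2 (26.7 RPM), against 0.214 to 0.777 RPM elsewhere.

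**Figure D1:**
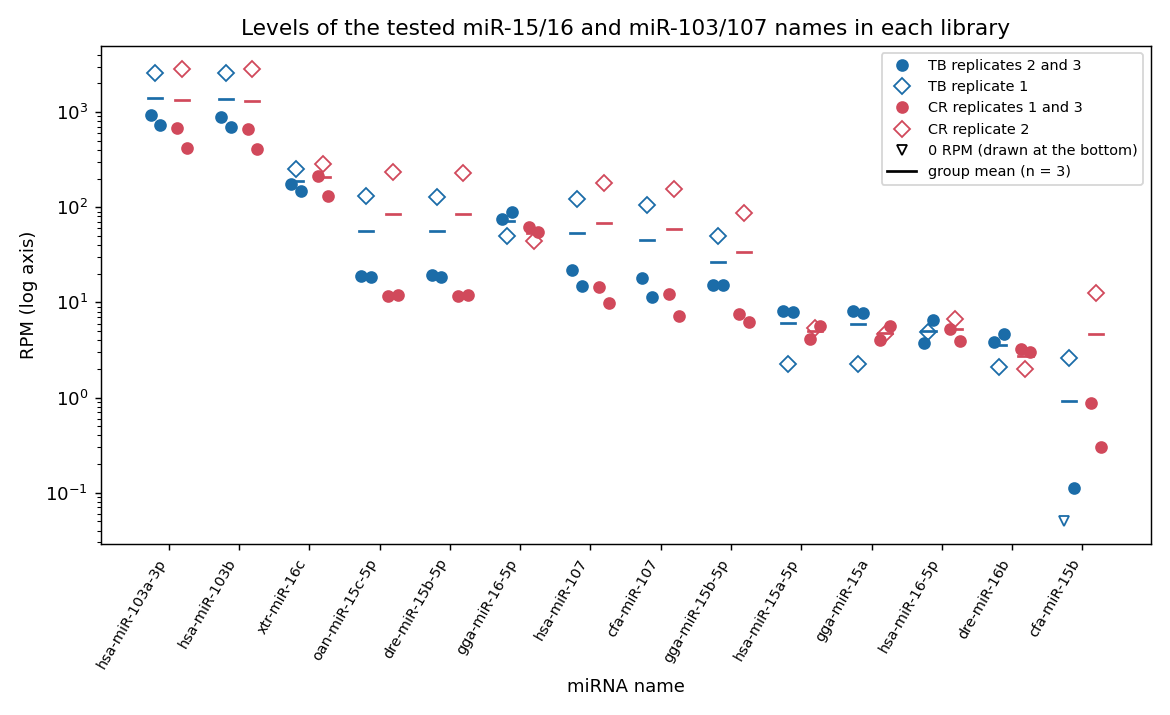
RPM of the 14 tested names (1 for each distinct profile, in the order of their mean) in each of the 6 libraries, on a log axis, with a line at the mean of each group. Open diamonds are TB replicate 1 and CR replicate 2, which lie above the other libraries for miR-103, miR-107, miR-15b, miR-15c and miR-16c and below them for gga-miR-16-5p and dre-miR-16b.

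Of the miR-16 names, xtr-miR-16c was the highest. The TB libraries had 250.1, 176 and 147 RPM and the CR libraries 211, 288 and 131 RPM, so the groups overlapped over nearly their whole range. The log2 fold change was 0.10 (limma, standard error 0.58, adjusted p = 0.999) and -0.090 with TMM scaling, so its sign depended on the scaling. The chicken name gga-miR-16-5p, of a cell cycle regulator in mammals, stood at 50.4, 75.3 and 89.6 RPM in the TB libraries and at 61.3, 44.6 and 55.3 RPM in the CR libraries. The lowest library of TB and the lowest of CR were those that stood apart, and in the other 4 both CR values lay below both TB values. Means were 71.8 ± 19.8 RPM (SD, n = 3) for TB and 53.8 ± 8.46 RPM (SD, n = 3) for CR. The log2 fold change of -0.38 had a standard error of 0.58 and an adjusted p of 0.999 in limma, and a two-sided exact permutation test on RPM gave p = 0.3, where 3 against 3 cannot go below 0.1. It was negative in each of the 6 fits that omitted a library, from -0.61 to -0.21. CR replicate 2, the shallowest library, rests on 67 reads for this name (95% Wilson interval 35.2 to 56.7 RPM, for counting error only).

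The human name hsa-miR-16-5p (with ppy-miR-16) was given far fewer reads, 231 in all, at 3.75 to 6.55 RPM over the TB libraries and 3.90 to 6.66 RPM over the CR libraries. Its log2 fold change of 0.05 (limma, standard error 0.53, adjusted p = 0.999) changed sign with TMM scaling (-0.10). The zebrafish name dre-miR-16b had 2.10, 3.85 and 4.66 RPM in the TB libraries, and 3.25, 1.999 and 3.001 RPM in the CR libraries. Its log2 fold change of -0.25 (standard error 0.49) did not pass the test either. The 4 tested miR-16 names thus differed 63.8-fold in their mean level, and how the counting divided reads among them is not given in the sources used here.

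miR-15a, which lies beside miR-16 in a common precursor transcript in vertebrates, was found at low levels. The name hsa-miR-15a-5p (with rno-miR-15a-5p) stood at 2.28, 8.03 and 7.88 RPM in the TB libraries and at 4.12, 5.33 and 5.601 RPM in the CR libraries. TB replicate 1 was the lowest of all libraries, from 13 reads (95% Wilson interval 1.33 to 3.90 RPM), while TB replicates 2 and 3 lay above the CR libraries. CR replicate 2 rests on 8 reads, and its 95% Wilson interval of 2.70 to 10.5 RPM spans the values of TB replicates 2 and 3. The log2 fold change was -0.10 (limma, standard error 0.63, adjusted p = 0.999), and -0.58 without TB replicate 1. The name gga-miR-15a gave nearly the same values.

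miR-15b and miR-15c behaved unlike miR-15a across the libraries. The name dre-miR-15b-5p stood at 129, 19.3 and 18.6 RPM in the TB libraries and at 11.7, 231 and 11.9 RPM in the CR libraries. Again TB replicate 1 and CR replicate 2 were high, in different groups, and the groups overlapped. Its log2 fold change was -0.15 (limma, standard error 1.44, adjusted p = 0.999). The name oan-miR-15c-5p had 132, 19.1 and 18.6 RPM in the TB libraries and 11.8, 233 and 11.9 RPM in the CR libraries. The chicken name gga-miR-15b-5p, whose reads were also those of cpi-miR-15c-5p and oan-miR-15b-5p, stood at 49.6, 15.3 and 15.2 RPM in the TB libraries and at 7.63, 86.6 and 6.20 RPM in the CR libraries. In the 4 libraries that were alike, the higher CR value was 50.2% of the lower TB value. With all libraries the log2 fold change was -0.43 (limma, standard error 1.17, adjusted p = 0.999). Without TB replicate 1 and CR replicate 2 it was -1.04 (limma, standard error 0.34), with an unadjusted p of 0.0081 and an adjusted p of 0.669. Both libraries were set aside for their values in these same data, and an exact test of 2 against 2 cannot go below 0.333. In that fit dre-miR-15b-5p gave -0.64 (unadjusted p = 0.081 in limma) and cfa-miR-15b gave 0.57. The name cfa-miR-15b (with mmu-miR-15b-5p) went the other way on very few reads. It had 15, 0 and 1 reads in the TB libraries (2.63, 0 and 0.111 RPM) and 10, 19 and 3 reads in the CR libraries (0.878, 12.7 and 0.300 RPM). Its log2 fold change was 1.02 (limma, standard error 1.03, adjusted p = 0.999). The 0 in TB replicate 2 allows up to 0.321 RPM.

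As a list, no member passed a test between CR and TB. Of the 14 tested members, 0 had an adjusted p under 0.05 and 0 an unadjusted p under 0.05 in limma, as did 0% of all 447 tested profiles for both. edgeR and DESeq2 on the recovered reads also gave 0 members at an unadjusted p under 0.05, beside 3 of all 447 tested profiles with each tool. In 0 members did the groups fail to overlap, against 2.46% of all tested profiles. The log2 fold change was below 0 in 11 of the 14, beside 45.4% of all profiles. These were the 4 profiles of miR-103 and miR-107 and 7 of the 10 of the miR-15/16 family. The median was -0.17 over the members and 0.05 over all profiles, and standard errors of the members ran from 0.49 to 1.45.

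These values depended on the libraries that stand apart. Without TB replicate 1 and CR replicate 2, 12 of the 14 members had a log2 fold change below 0, beside 62.9% of all profiles, and the median was -0.58 against -0.11 over all profiles. In 10 members both CR libraries lay below both TB libraries, beside 26.0% of all profiles, and in 1 member (cfa-miR-15b) they lay above, beside 5.82%. For cfa-miR-15b this rests on 0 and 1 reads in TB replicates 2 and 3 and on 10 and 3 reads in CR replicates 1 and 3. Its 0.300 RPM in CR replicate 3 is below the 0.321 RPM that the 0 in TB replicate 2 allows, so its place above is not established. The 10 were both miR-103 names, hsa-miR-107, both miR-15a names, dre-miR-15b-5p, gga-miR-15b-5p, oan-miR-15c-5p, gga-miR-16-5p and dre-miR-16b, several of which share reads as given above. A single member, gga-miR-15b-5p, had an unadjusted p under 0.05 there, beside 3.58% of all profiles, and 0 members had an adjusted p under 0.05 (limma). When 1 library alone was left out, the balance between the groups shifted for the members and for all profiles alike. The members below 0 numbered 14 when CR replicate 2 was omitted (71.4% of all profiles), 5 for CR replicate 1 (37.8%) and 4 for CR replicate 3 (29.5%). They numbered 4 for TB replicate 1 (34.9%), 10 for TB replicate 2 (60.9%) and 10 for TB replicate 3 (66.2%). The median of the members moved between -0.71 and 0.23 in these fits and that of all profiles between -0.45 and 0.43.

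**Figure D2:**
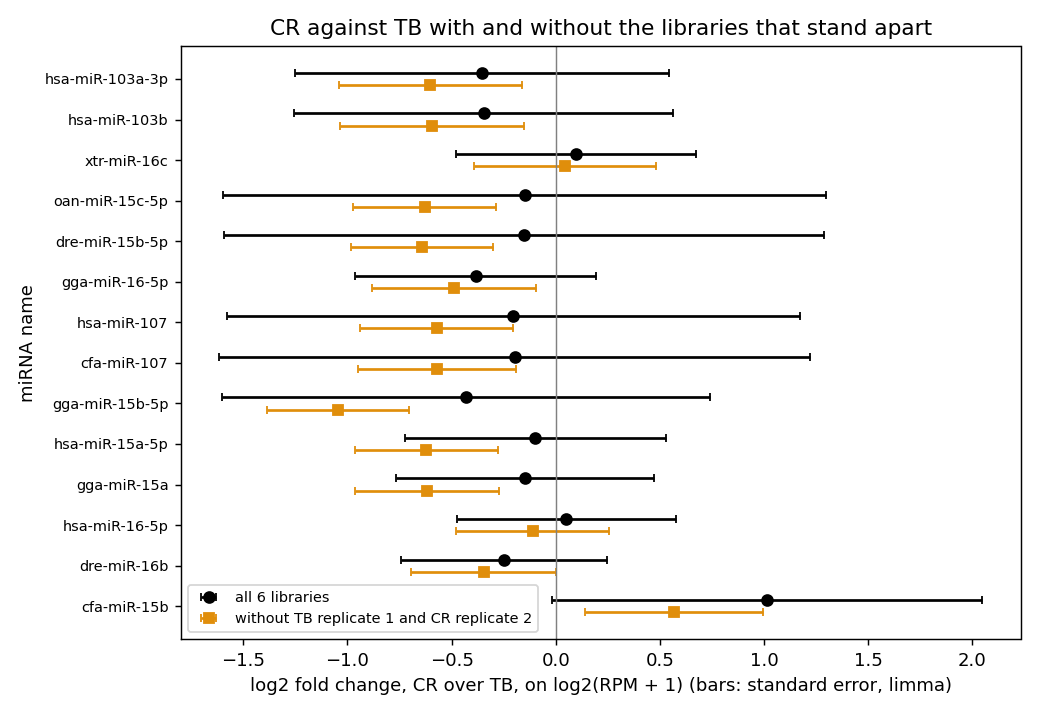
Log2 fold change of CR over TB for the 14 tested names, with its standard error from limma, for all 6 libraries (circles) and without TB replicate 1 and CR replicate 2 (squares). In all libraries 11 of 14 lie below 0, and in the remaining 4 libraries 12 of 14 do, with shorter bars, while no adjusted p is under 0.05 in either.

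Members of the group differed in how far TB replicate 1 and CR replicate 2 departed from the other libraries. In 9 of the 14 tested profiles both libraries lay above the other 4, and in 2 both lay below, beside 57.3% and 21.5% of all tested profiles, so the number of members that departed was near that of miRNAs in general. The size and the direction varied within the group. The mean of both libraries over that of the other 4 was 11.7 for dre-miR-15b-5p, 9.85 for hsa-miR-107, 6.14 for gga-miR-15b-5p, 3.96 for hsa-miR-103a-3p and 1.62 for xtr-miR-16c. It was 0.675 for gga-miR-16-5p, 0.594 for hsa-miR-15a-5p and 0.556 for dre-miR-16b. The names hsa-miR-15a-5p and dre-miR-16b rest on 13 reads or fewer in each of these libraries. The leukocyte markers went in opposite directions in these libraries. miR-142 (gga-miR-142-5p) was low, at 31.9 RPM in TB replicate 1 and 87.9 RPM in CR replicate 2 against 237 to 321 RPM elsewhere, whereas miR-155 (ssc-miR-155-5p) was high, at 24.7 and 49.3 RPM against 6.90 to 9.98 RPM. The summed leukocyte list was 56.6 and 137 RPM in them and 244 to 331 RPM elsewhere. Of the erythroid markers, miR-451 (hsa-miR-451a), at 24.2 and 46.0 RPM, lay within the 19.4 to 53.4 RPM of the others, and miR-144 (cpi-miR-144-5p) was low, at 0 and 0.666 RPM against 1.82 to 5.10 RPM. The part of these cells in the values of the members was not tested.

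**Figure D3:**
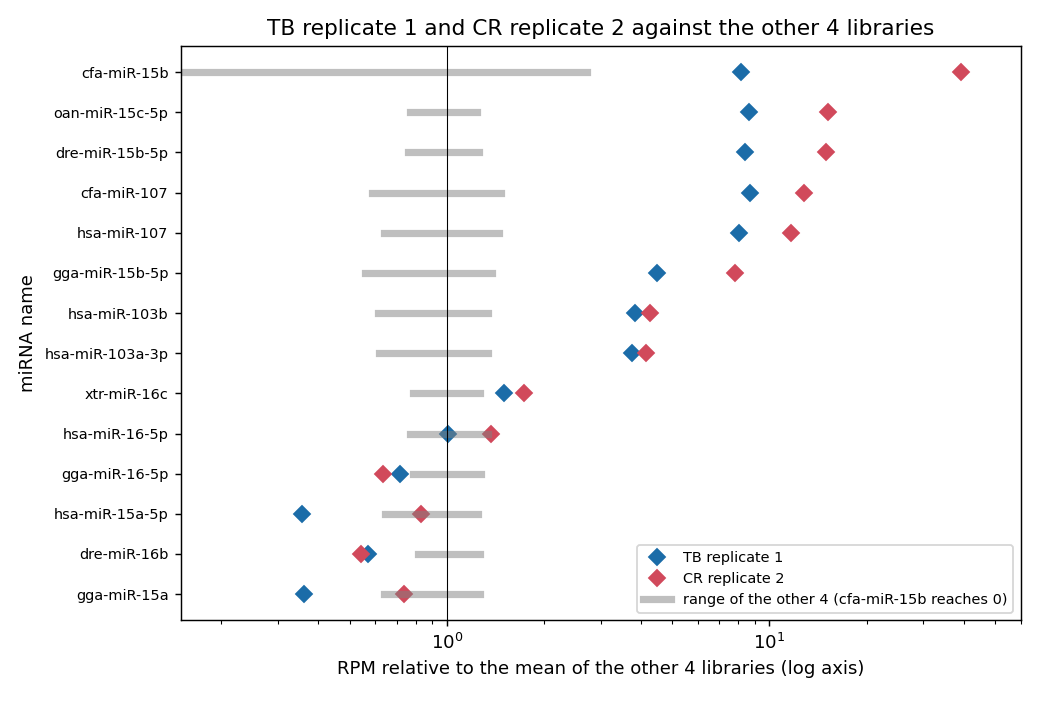
RPM in TB replicate 1 and CR replicate 2 (diamonds) relative to the mean of the other 4 libraries, on a log axis, for the 14 tested names, with the range of the other 4 as a bar. miR-15b, miR-15c, miR-107, miR-103 and miR-16c lie to the right of the bar, and gga-miR-16-5p and dre-miR-16b to its left.

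The order of the levels therefore differed between libraries. RPM carries no correction for length, which is close to equal among mature miRNAs. The order given here is one of RPM values of names, and how evenly different sequences were captured and counted was not examined. miR-103 stood first and miR-16c next in all 6 libraries. In the 4 libraries that were alike, gga-miR-16-5p (55.3 to 89.6 RPM) came after them, above dre-miR-15b-5p (11.7 to 19.3 RPM) and hsa-miR-107 (9.80 to 22.2 RPM), whose ranges overlapped each other. In TB replicate 1 and CR replicate 2, dre-miR-15b-5p (129 and 231 RPM) and hsa-miR-107 (123.0 and 179 RPM) exceeded gga-miR-16-5p (50.4 and 44.6 RPM). The name hsa-miR-15a-5p was below all of these in each library.

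Ratios within a library do not depend on how it is scaled, and 4 were compared, with gga-miR-16-5p standing for miR-16 although xtr-miR-16c was higher. The ratio of miR-16 to miR-15a (gga-miR-16-5p to hsa-miR-15a-5p) was 22.2, 9.37 and 11.4 in the TB libraries. In the CR libraries it was 14.9, 8.38 and 9.87. The range of this ratio was the narrowest of the 4 with these names, and ratios with xtr-miR-16c were not computed. Its highest value rests on the 13 miR-15a reads of TB replicate 1 and its lowest on the 8 of CR replicate 2. Names of the 3p arm of both miR-16-1 and miR-16-2 had reads, so the miR-16 reads are not known to come from the transcript of miR-15a alone. The ratio of miR-103 to miR-107 was 21.1, 41.9 and 48.7 in the TB libraries and 47.6, 16.1 and 43.3 in the CR libraries. It was low in TB replicate 1 and CR replicate 2 and between 41.9 and 48.7 in the other 4. The ratio of miR-15a to miR-15b was 0.0176 and 0.0231 in these libraries and 0.353 to 0.471 in the other 4, and that of miR-103 to miR-16 was 51.5 and 64.3 against 7.68 to 12.3. None of the 4 differed between CR and TB beyond the spread between replicates. The differences on the log2 scale were -0.31 for miR-16 to miR-15a (p = 0.6), 0.10 for miR-15a to miR-15b (p = 0.8), -0.13 for miR-103 to miR-107 (p = 0.8) and 0.04 for miR-103 to miR-16 (p = 1.0, all by two-sided exact permutation tests with a smallest p of 0.1, and 1.0 each after Benjamini-Hochberg adjustment over the 4).

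**Figure D4:**
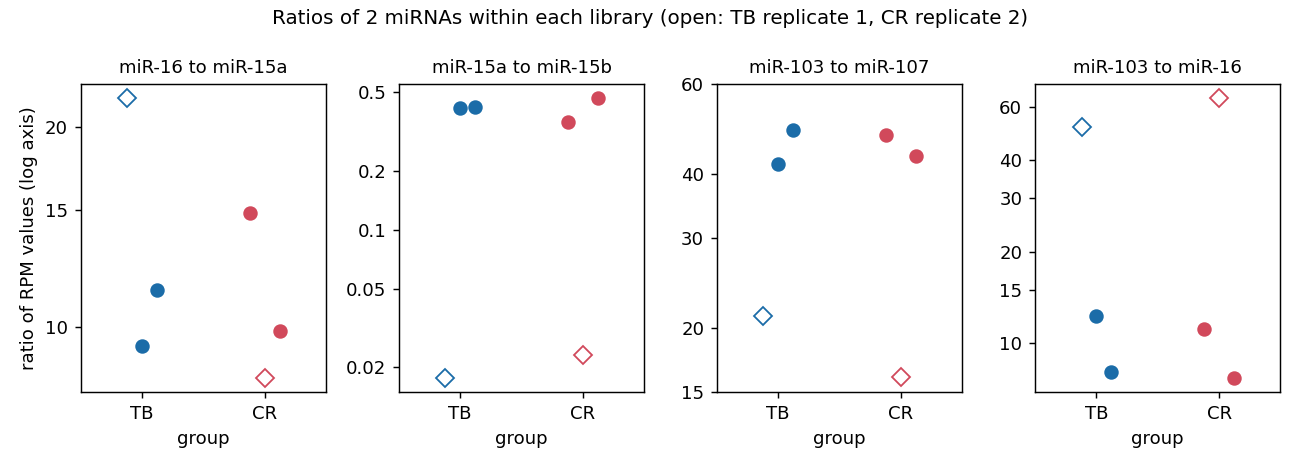
Ratio of the RPM values of both miRNAs of a pair in each library of TB and CR (gga-miR-16-5p for miR-16, hsa-miR-15a-5p, dre-miR-15b-5p, hsa-miR-103a-3p and hsa-miR-107), on log axes (open diamonds: TB replicate 1 and CR replicate 2). The open points lie together and apart from the filled ones in the ratios that include miR-15b, miR-107 or miR-103. In the ratio of miR-16 to miR-15a they are the highest (TB replicate 1) and the lowest (CR replicate 2). CR and TB overlap in all 4.

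The other arms were almost absent. In the miR-15/16 family, where the guide comes from the 5p arm, the 22 names of the 3p arm had 156 reads when identical profiles were counted once, which is 0.914% of the reads of the family counted in this way, and 6 of them were listed at 0. The highest was hsa-miR-16-1-3p, with 5, 10 and 6 reads in the TB libraries and 17, 0 and 9 reads in the CR libraries. The 0 in CR replicate 2 allows up to 1.999 RPM, above the 0.666 to 1.49 RPM of the other libraries, so no difference was detectable there. In miR-103 and miR-107, where the 3p arm is the guide, the 4 names of the 5p arm had 3 reads, or 0.00317%. Names that share most but not all of their reads, such as both miR-103 names, each count in these totals. The shares are therefore approximate. None of these names could be tested, so no ratio between arms was compared.

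Members known from other loci in mammals were hardly present. The name mmu-miR-195a-5p had 9, 0 and 0 reads in the TB libraries and 3, 3 and 1 reads in the CR libraries. The miR-497 name ami-miR-497-5p had 1 read, in TB replicate 2. Both names of miR-424 were listed at 0 in all libraries, and miR-503 had no name in the tables. Of 7 further miRNAs with the miR-15/16 seed, miR-322 had 0.175 RPM in TB replicate 1 only and miR-457 had 0.176 RPM in CR replicate 1 only, and the other 5 had no name. Of the 3 neighbours of miR-424 and miR-503 in mammals (miR-542, miR-450 and miR-351), 0 had a name.

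Among the 433 tested profiles outside the group, the one most like hsa-miR-103a-3p was hsa-miR-23a-3p, by the root mean square difference of log2(RPM + 1) over the 6 libraries after centring each miRNA on its mean. The difference was 0.12, and hsa-miR-23a-3p had 575, 204 and 142.8 RPM in the TB libraries and 149, 663 and 111 RPM in the CR libraries. It was followed by dre-miR-2188-5p (0.17) and ggo-miR-146a (0.23). For xtr-miR-16c these were oan-miR-145-5p (0.15), aca-miR-338-3p (0.16) and mmu-miR-126a-5p (0.19). With 6 libraries that share the same split, these likenesses are a description.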

How the data were processed

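Small RNA of the duodenum of 3 TB and 3 CR samples was sequenced from TruSeq libraries on an Illumina HiSeq platform. For every library the authors deposited RPM values under a header of TPM, which sum to 1000000 over 1568 names, whereas the methods section names FPKM. The aligner, genome build and read filter are not given in the sources used here. All values (100.0%, within 0.001 of a read) were whole multiples of 1 read, worth 0.0878 to 0.666 RPM.

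CR and TB were compared with limma 3.58.1 (trend) on log2(RPM + 1) over the 662 names that had 10 reads or more in 3 or more libraries, with Benjamini-Hochberg adjustment over all of them. The scripts were tested on simulated data. Shares of called profiles are over the 447 distinct tested profiles. A pseudocount of 1 understates changes of low names. Alternatives were edgeR 4.0.16, DESeq2 1.42.0, TMM scaling, other filters and pseudocounts, identical names once, a replicate block, a term for the library split and libraries left out. The most abundant tested name of each miRNA and arm was described, and other members by range. The members, lists and the split of libraries were chosen with earlier results of these data known. R 4.3.3 and Python 3.11.15 were used. Mature sequences were not used here. Intervals cover counting error only, since no molecular identifiers are known.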

Additional observations from a re-analysis of the deposited data

How the results depend on the processing

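The number of members with an adjusted p under 0.05 was 0 in each alternative run. The number with an unadjusted p under 0.05 was 0 except for 1 without both TB replicate 1 and CR replicate 2 (gga-miR-15b-5p, beside 3.58% of all profiles) and 1 with the library split as a term in limma (cfa-miR-15b, log2 fold change 1.02, adjusted p = 0.422, beside 4.25% of all profiles, with 0.671% at an adjusted p under 0.05), and it was 0 in each fit with one replicate left out. The number of members whose groups do not overlap was 0, and 2 with TMM-scaled RPM (2.46% of all profiles), 11 without both libraries (fewer samples, 31.8% of all profiles) and from 0 to 6 in the fits that omitted a single replicate (5 without TB replicate 1, beside 13.2% of all profiles, and 6 without CR replicate 2, beside 20.8%). Beyond the number of samples, the cause was not tested. The name cfa-miR-15b, 1 of these 11 and the call with the split term, rests on 48 reads in all. It had 0 and 1 reads in TB replicates 2 and 3. The log2 fold change of hsa-miR-16-5p (0.05) was -0.13 with edgeR, -0.085 with DESeq2, -0.10 with TMM-scaled RPM and -0.11 without both libraries, and that of xtr-miR-16c (0.10) was -0.090 with TMM-scaled RPM.

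With one replicate left out, the log2 fold change ran from -1.16 to 0.22 for hsa-miR-103a-3p, -1.16 to 0.24 for hsa-miR-103b, -1.47 to 0.69 for hsa-miR-107, -1.50 to 0.74 for cfa-miR-107, -1.54 to 0.75 for dre-miR-15b-5p, -1.54 to 0.77 for oan-miR-15c-5p, -1.59 to 0.21 for gga-miR-15b-5p, -0.58 to 0.15 for hsa-miR-15a-5p (-0.62 without both libraries), -0.63 to 0.11 for gga-miR-15a, -0.17 to 0.40 for xtr-miR-16c, -0.11 to 0.22 for hsa-miR-16-5p and -0.027 to 1.67 for cfa-miR-15b. Only gga-miR-16-5p and dre-miR-16b (-0.50 to -0.066) kept their sign in all of these fits, each time with a change smaller than its standard error. The same count over all profiles was not made.

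The log2 difference of the ratio of miR-16 to miR-15a (-0.31) was 0.23 without both libraries and lay between -0.57 and 0.05 when single replicates were omitted. That of miR-15a to miR-15b (0.10) was -0.04 and ran from -1.42 to 1.48, that of miR-103 to miR-107 (-0.13) was 0.0087 and ran from -0.49 to 0.37, and that of miR-103 to miR-16 (0.04) was -0.11 and ran from -0.90 to 0.82.

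The deviations of same-numbered libraries from their group means correlated at -0.80, -0.91 and 0.91 for replicates 1, 2 and 3. Of the 6 libraries, 2 correlated best with their own number. The libraries that stand apart carry different numbers (TB replicate 1 and CR replicate 2), so these correlations cannot decide whether the numbers mark pairs. The numbers were not taken as pairs. With a replicate block in limma 0 members had an unadjusted p under 0.05 and 0 an adjusted p under 0.05, and log2 fold changes were the same (-0.35 for hsa-miR-103a-3p). The alternatives for ratios between arms were not run, since no other arm reached the minimum of 10 reads in 3 libraries. CR replicate 2, with 1500905 reads summed over all names, limits the low members most.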
